A study of Oryza sativa with 4 samples.

Results

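Cellulose synthases, their cellulose synthase-like (Csl) relatives and the COBRA-like proteins build the glucan frame of the plant cell wall. CESA proteins are the catalytic subunits of the plasma membrane complexes that spin cellulose, with separate sets of subunits in the primary wall of growing cells and in the thick secondary wall of fibres, vessels and anther wall layers. Csl proteins make the backbones of other wall polysaccharides, and COBRA-like proteins, most of them anchored to the outer face of the membrane by a lipid, are needed for ordered cellulose deposition. In an anther these walls are remodelled as the tapetum, the layer that feeds the microspores, breaks down and pollen builds its inner wall.

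The genes were selected by a rule on names, which was set with earlier results of these data known. A gene entered if a symbol or synonym, without its Os prefix, starts with CESA, CSLA, CSLC, CSLD, CSLE, CSLF, CSLH or BC1L. Of 40 genes named so in the RefSeq gene table, 32 had a probe set on the array and are described here, among 17905 genes measured in all. They are 9 CESA, 4 CSLA, 5 CSLC, 4 CSLD, 2 CSLE, 4 CSLF, 1 CSLH and 3 BC1L genes. The other 8 (CSLA3, CSLA4, CSLE6, CSLF3, CSLF4, CSLF9, BC1L7 and BC1LP1) were not analysed here. Some members are chromosomal neighbours in the gene table: CSLF9 and CSLF8 lie side by side, with 1 gene between CSLF8 and CSLF2, BC1L6 lies next to BC1L7 and CSLE1 next to CSLE6. No sequences were available for the members. Cross-hybridisation between such close relatives was not tested. The name CSLA9 is listed for LOC4328585, called CSLA1 here, and for LOC4341571, called CSLA9.

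Whole rice spikelets of ZH11, a japonica cultivar, and of ZH11 plants carrying an RNA interference construct against the calcium-dependent protein kinase OsCPK21 were sampled at anther stage 9, with young free microspores, and stage 12, with maturing pollen. Plants were grown untreated in a field. RNA of each of the 4 groups was hybridised to 1 Affymetrix rice array, so there is no replicate, no SD and no test. The labels name 3 RNAi lines without saying which line or pool each array holds, and the promoter of the construct is not given in the sources used here. Groups follow the titles. A separate genotype field states the reverse for all 4 samples, and under it each genotype direction below would be turned around. The level of OsCPK21 (LOC4346187) was 1940 in ZH11 and 206 in RNAi at stage 9, and 2719 and 17.6 at stage 12, which goes with the titles.

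Values are the deposited MAS5 signals, 1 per probe set and array on a linear scale. Signals at or below a floor of 71.1 were treated as unmeasured. Higher and lower are used for a ratio of 2-fold or more between 2 arrays, of which the brighter had to exceed the floor. Where the dimmer one did not exceed it, the ratio is a bound and is written "at least". Of the 32 members, 24 were above the floor on all 4 arrays. CSLD1, known in rice for root hair growth, and CSLF7 were below it on all 4, with signals from 29.4 to 40.2 and from 20.4 to 27.9. In whole spikelets, fewer cells of a type and less RNA per cell cannot be told apart.

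**Figure D1:**
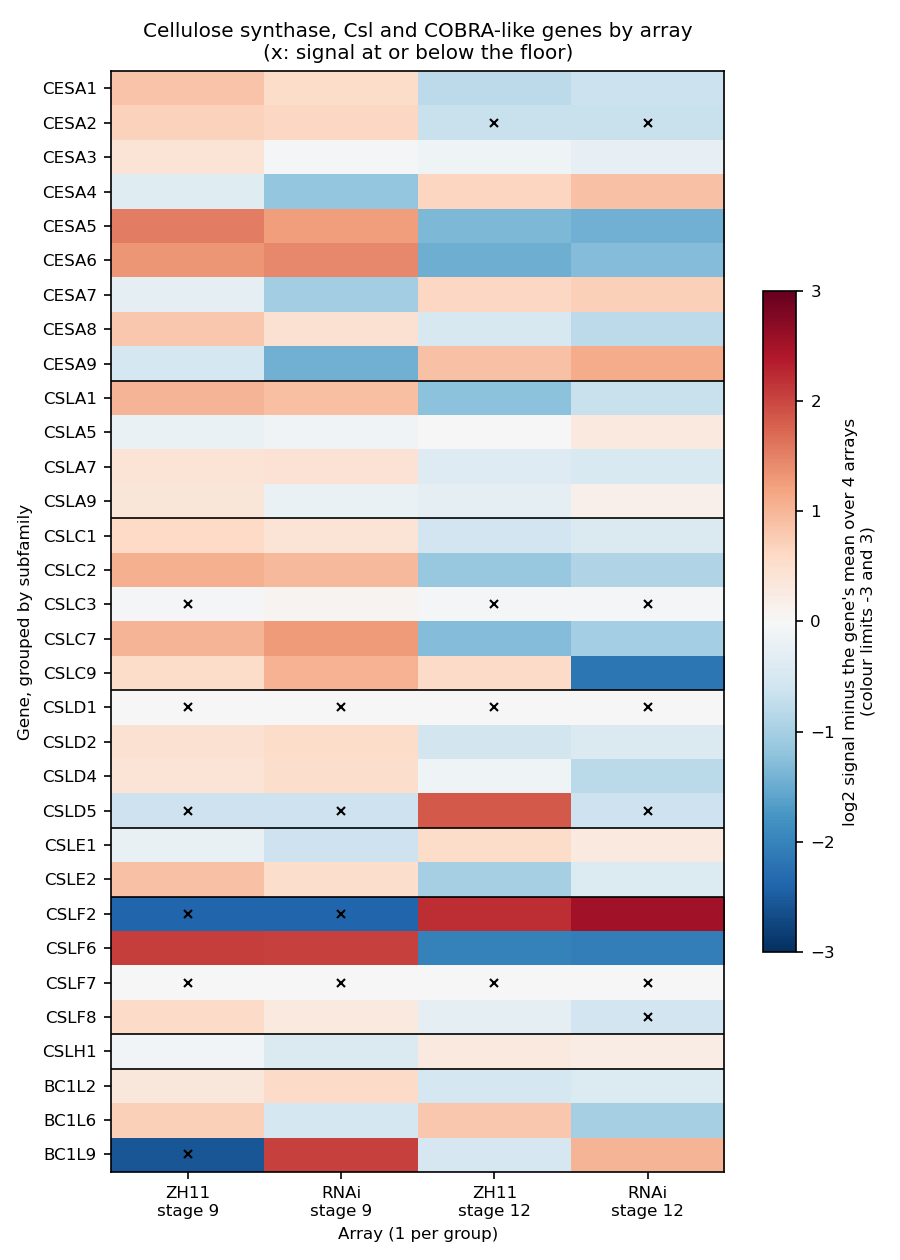
Each row is a gene and each column an array, and the colour is the log2 signal after the floor minus the gene's mean over the 4 arrays, with crosses where the signal was at or below the floor of 71.1. CSLF6 and CSLF2 turn colour in opposite ways between stages in both genotypes, while CSLC9, CSLD5, BC1L6 and BC1L9 differ between genotypes.

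More of these genes differed between stages than between genotypes, and the stage differences split the family. In ZH11, 12 of 29 members above the floor on either array were lower at stage 12 than at stage 9 (41.4%, against 15.7% of 16378 genes) and 4 were higher (13.8%, against 17.1%). In RNAi the counts were also 12 lower (41.4%, against 15.8% of 16056 genes) and 4 higher (13.8%, against 14.9%). The median log2 stage ratio of the members was -0.79 in ZH11 and -0.95 in RNAi, where that of all genes was 0.07 and 0.00 (-0.0045). The same 9 genes were lower in both genotypes: CESA1, CESA2, CESA5, CESA6, CESA8, CSLA1, CSLC2, CSLC7 and CSLF6. CESA9 and CSLF2 were higher in both. How many of all genes were called the same way in both genotypes was not counted, so these overlaps have no background share. Across the 28 members above the floor in both comparisons, which share no array, the log2 stage ratios had a Pearson correlation of 0.848, and across 15809 genes of 0.811. Genes are not independent replicates, and the RNA quality differed with stage: the 3-prime to 5-prime ratio of the actin control was 3.89 and 4.20 at stage 9 and 10.3 and 8.53 at stage 12 in ZH11 and RNAi. That of the Gapdh control was 1.96 in ZH11 and 2.50 in RNAi at stage 9, and 3.48 in both at stage 12. At stage 9 the ratios of both controls were thus larger in RNAi than in ZH11. The part of RNA quality in the stage ratios and in the genotype ratios was not tested.

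**Figure D2:**
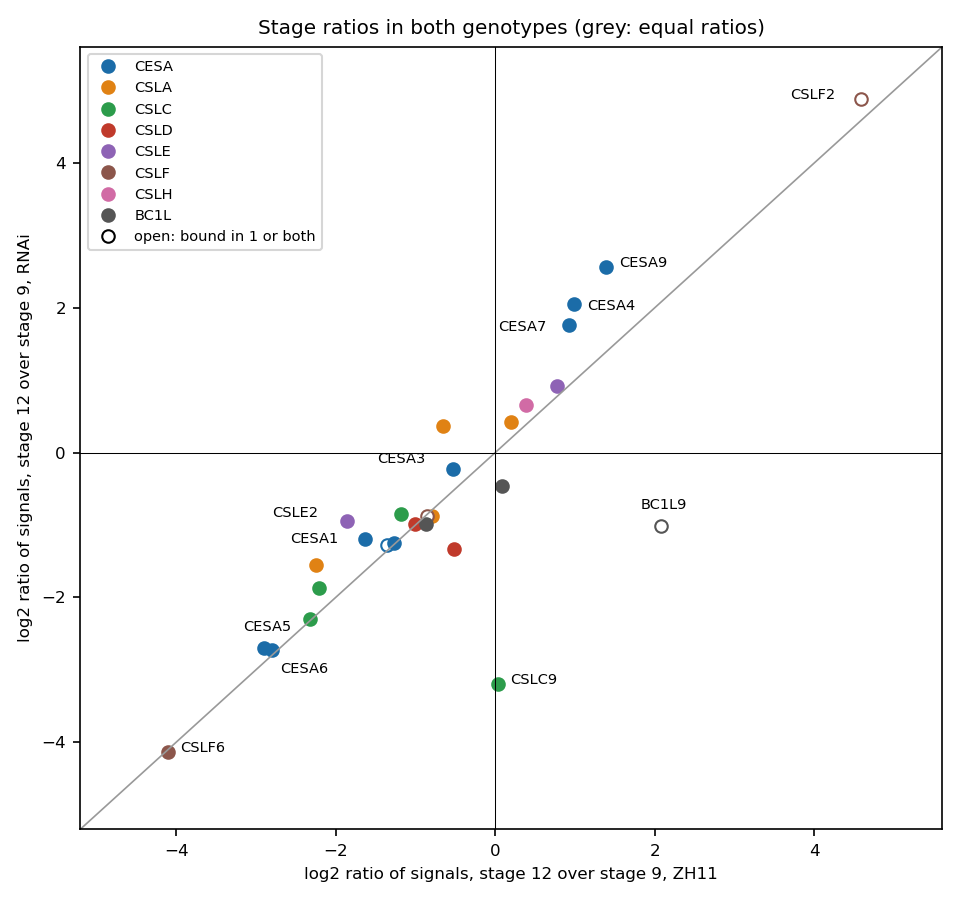
Each point is one of 28 members, with the log2 ratio of stage 12 over stage 9 in ZH11 on the horizontal axis and in RNAi on the vertical axis, coloured by subfamily, and open where either ratio is a bound. Of the 28, 24 (85.7%) have the same sign in both genotypes, as have 80.5% of all genes; relative to the grey line of equal ratios CESA4, CESA7 and CESA9 lie above it, and CSLC9 (0.03 and -3.19) and BC1L9 (2.08 and -1.01) far below.

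CESA1 and CESA8 of the primary wall were lower at stage 12, and CESA3 was within 2-fold. CESA1 signals were 7664 in ZH11 and 6269 in RNAi at stage 9, and 2480 and 2732 at stage 12. CESA8 had 5188 and 4087 at stage 9, and 2153 and 1727 at stage 12. CESA3, which is also counted with the primary wall set, had 5551 and 4103 at stage 9 and 3829 and 3496 at stage 12. Stage 9 was the brighter stage for all 3 genes in both genotypes, by 3.09-fold in ZH11 and 2.29-fold in RNAi for CESA1 and by 2.41-fold and 2.37-fold for CESA8, while CESA3 stayed within 2-fold. The second, dimmer probe set of CESA3 gave log2 stage ratios of -1.57 and -1.31, past 2-fold. CESA5 and CESA6, further cellulose synthase subunits, differed more between stages. CESA5 had signals of 5601 and 4578 at stage 9 and of 752 and 706 at stage 12, 7.45-fold lower in ZH11 and 6.48-fold lower in RNAi. CESA6 had 5261 and 5705 at stage 9 and 756 and 859 at stage 12, 6.96-fold and 6.64-fold lower. CESA2 was above the floor at stage 9 only, with signals of 183 and 172, and at stage 12 it was lower by at least 2.57-fold in ZH11 and at least 2.42-fold in RNAi.

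CESA genes of the secondary wall were brighter at stage 12 in both genotypes. CESA4 signals were 1785 in ZH11 and 1016 in RNAi at stage 9, and 3543 and 4207 at stage 12. CESA7 had 887 and 532 at stage 9, and 1685 and 1803 at stage 12. CESA9 had 392 and 206 at stage 9, and 1029 and 1212 at stage 12. These 3 encode the subunits whose loss makes rice culms brittle, and each had its lowest signal on the RNAi stage 9 array and its highest on the RNAi stage 12 array. In RNAi all 3 were higher at stage 12, CESA4 by 4.14-fold, CESA7 by 3.39-fold and CESA9 by 5.89-fold. In ZH11 CESA9 was 2.63-fold higher, and CESA4 and CESA7 lay just within 2-fold, with log2 ratios of 0.99 and 0.93. CESA4 passed 2-fold under both other scalings of the arrays (1.01 and 1.03). A difference of mean log2 ratios between the sets does not depend on a linear scaling of the arrays. The secondary set (CESA4, CESA7, CESA9) lay 2.25 above the primary set (CESA1, CESA3, CESA8) on the log2 scale in the stage comparison in ZH11 and 3.01 above it in RNAi.

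At stage 9 the secondary wall CESA genes were below ZH11 in RNAi spikelets, each by less than 2-fold. The ZH11 signal exceeded the RNAi signal 1.90-fold for CESA9, 1.76-fold for CESA4 and 1.67-fold for CESA7, and CESA9 had the largest ratio among the 26 members that stayed within 2-fold. At stage 12 the genotypes differed little, with log2 ratios of 0.24 for CESA9, 0.25 for CESA4 and 0.10 for CESA7. The genotype ratio therefore differed between stages by 2.24-fold for CESA9, 2.09-fold for CESA4 and 1.78-fold for CESA7. A shift past 2-fold towards higher RNAi values at stage 12 was seen in 5.79% of 16625 genes and in 3 of 30 members, the third being CSLA9. A shift the other way was seen in 9.05% of the genes and in the same number of members, BC1L9, CSLC9 and CSLD5, described below. The second probe set of CESA4 gave log2 genotype ratios of -0.60 and 0.21. BC1 (LOC4333114, BRITTLE CULM1), the founding rice COBRA-like gene of the secondary wall, is not a member by the rule and was the 1 cellulose partner gene of the pathway list that was matched. Its signals were 408 in ZH11 and 228 in RNAi at stage 9 and 835 and 1000.2 at stage 12. Its log2 genotype ratio was -0.84 at stage 9 and 0.26 at stage 12, and it was 2.05-fold higher at stage 12 in ZH11 and 4.38-fold higher in RNAi. None of 6 photosynthetic genes, markers of green tissue, passed 2-fold between genotypes at either stage. Their summed signal was 11192 in ZH11 and 8914 in RNAi at stage 9, and 20130 and 22180 at stage 12, with a median log2 genotype ratio of -0.40 at stage 9 and 0.01 (0.0069) at stage 12. Most of the sum at stage 9 was CAB2R, with signals of 8361 and 6795. The log2 genotype ratios at stage 9 and stage 12 were -0.94 and 0.90 for PSAG and -0.37 and 0.57 for GOS5. They were -0.43 and 0.01 for RBCS, -0.30 and 0.01 for CAB2R and -0.54 and -0.19 for LFNR1. PSB28, the only 1 of the 6 above 0 at stage 9, had 0.47 and -0.62, opposite in sign to the secondary wall CESA genes. The part of these 6 genes in the CESA ratios was not tested.

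**Figure D3:**
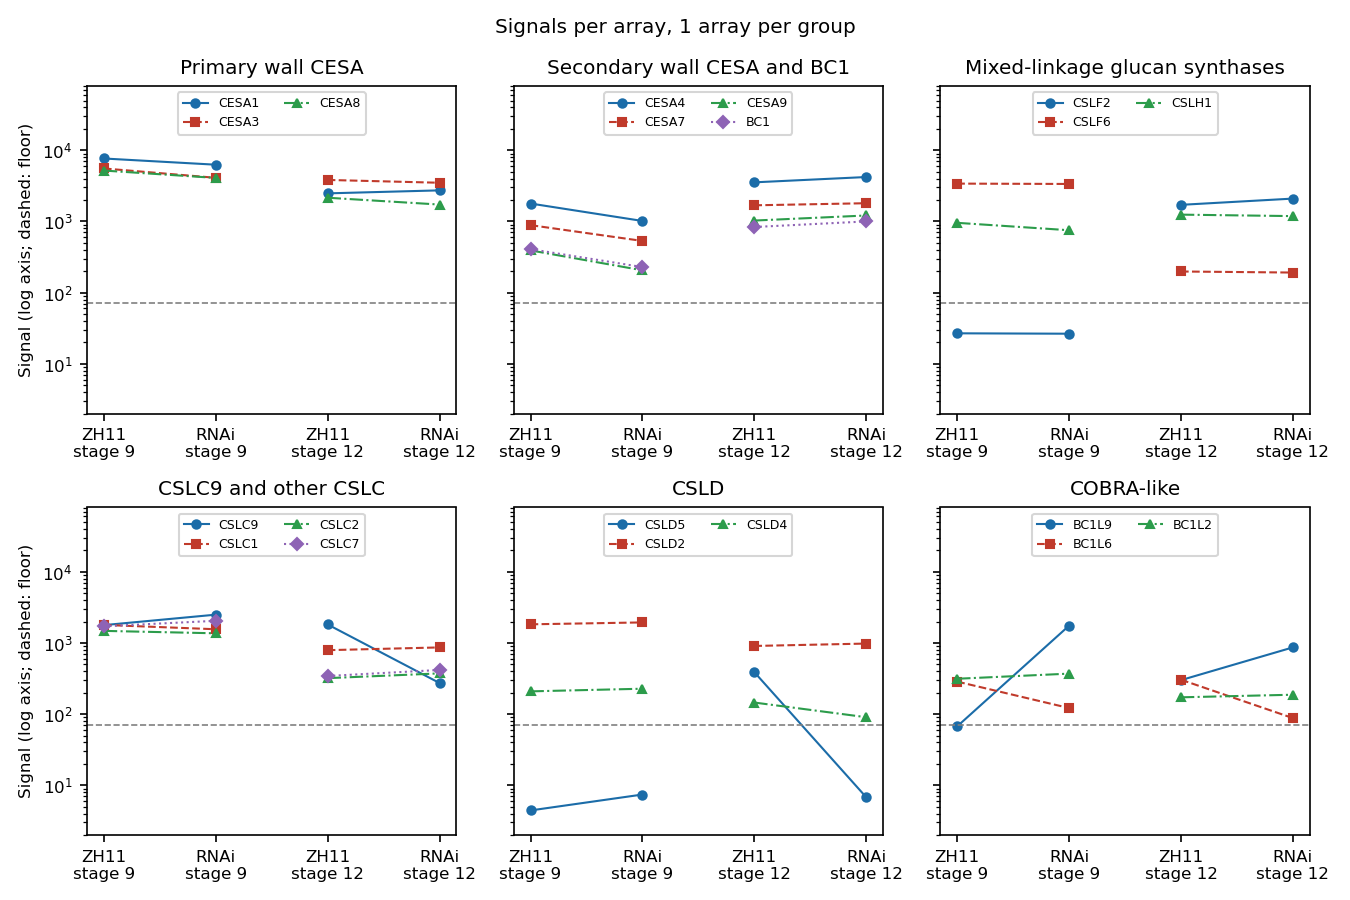
Signals on a log axis for each array, with the dashed line at the floor of 71.1 and lines joining the genotypes within a stage. The secondary wall CESA genes and BC1 are dimmer in RNAi than in ZH11 at stage 9, each by less than 2-fold. CSLC9 and CSLD5 lie lower in RNAi than in ZH11 at stage 12. BC1L9 and BC1L6 differ between genotypes at both stages in opposite directions.

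Among the genes for mixed-linkage glucan, a wall polymer typical of grasses, CSLF6 was lower and CSLF2 higher at stage 12. CSLF6, the main synthase of this glucan in rice, gave signals of 3400.3 (ZH11) and 3362 (RNAi) at stage 9, and of 198 and 191 at stage 12. CSLF2, another member of the CSLF family of mixed-linkage glucan synthases, had 26.8 and 26.5 at stage 9 and 1711 and 2094 at stage 12. CSLH1, from the second family that makes this glucan, had 956 and 752 at stage 9 and 1246 and 1188 at stage 12. CSLF6 was thus 17.2-fold lower at stage 12 in ZH11 and 17.6-fold lower in RNAi, the lowest stage ratios of any member in both genotypes. CSLF2 was at least 24.1-fold and at least 29.5-fold higher, bounds set by the floor at stage 9. CSLH1 stayed within 2-fold between stages and genotypes. Genotype ratios were small for this group: log2 -0.02 and -0.05 for CSLF6 and 0.29 at stage 12 for CSLF2. CSLF6 had 2 more probe sets, both below the floor on all arrays. CSLF8 had signals of 157 and 130 at stage 9 and of 86.6 and 57.5 at stage 12, the last below the floor, and was within 2-fold in all 4 comparisons.

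Between genotypes few members differed by 2-fold. At stage 9, 1 of 28 members was higher in RNAi (3.57%, against 3.28% of 15358 genes) and 1 was lower (3.57%, against 2.27%). At stage 12, 1 of 28 was higher (3.57%, against 2.85% of 15966 genes) and 3 were lower (10.7%, against 7.03%), shares near those of all genes. Scaling the arrays to equal medians, the shares of all genes at stage 12 became 4.20% higher and 6.0% lower, and the median log2 ratio of genes above the floor on both arrays went from 0.03 to 0.19, while the members' counts stayed at 1 and 3. The median log2 genotype ratio of the members was -0.16 at stage 9 and 0.12 at stage 12, against -0.04 and 0.02 for all genes. Of 9 CESA genes 8 had a ratio below 1 at stage 9, all within 2-fold, where 56.5% of all genes had a ratio below 1; the count stayed at 8 under both other scalings.

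**Figure D4:**
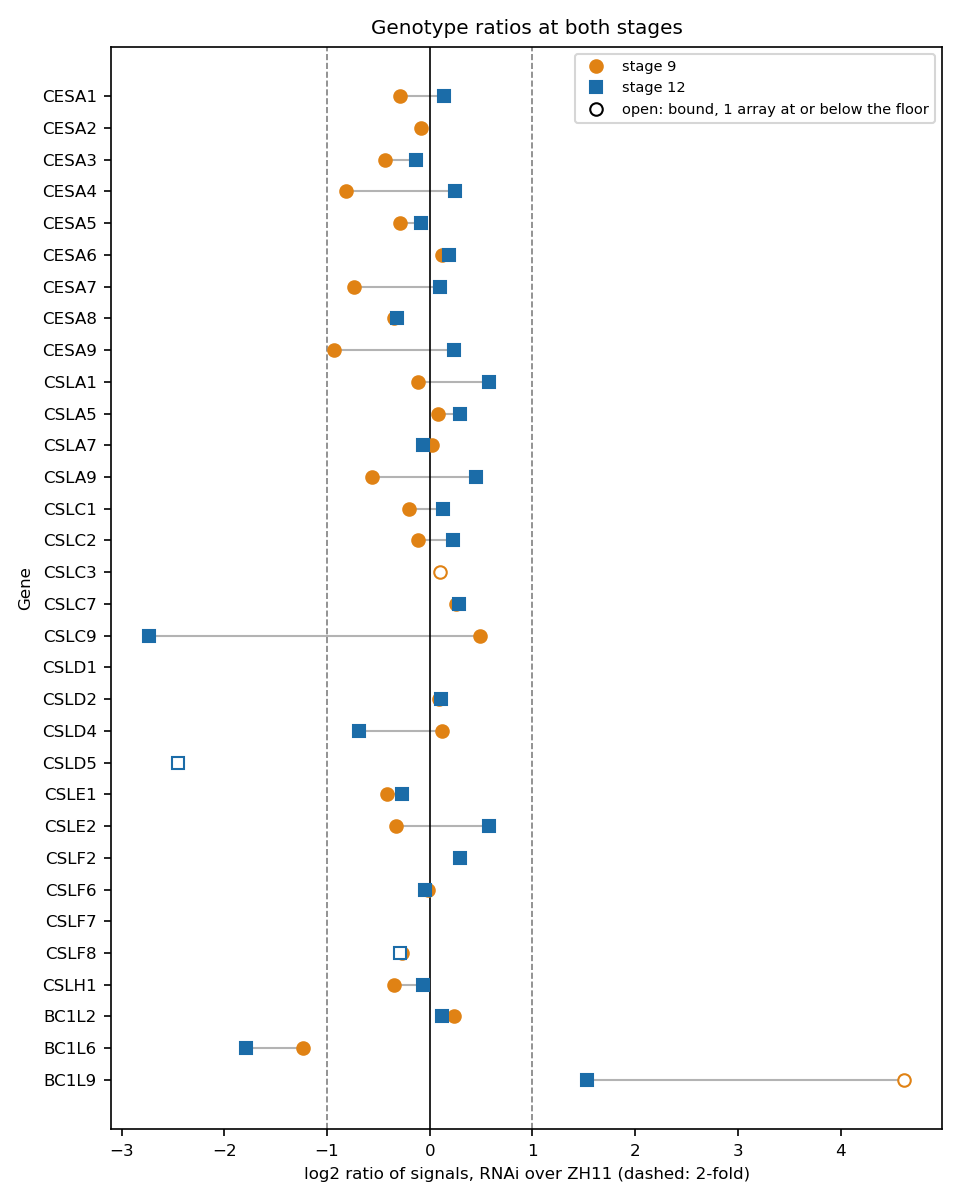
For each gene the log2 ratio of RNAi over ZH11 is shown at stage 9 (circles) and stage 12 (squares), open where 1 array was at or below the floor, with dashed lines at 2-fold; genes below the floor on both arrays of a stage have no symbol. BC1L6, BC1L9, CSLC9 and CSLD5 lie outside the dashed lines, CSLC9 and CSLD5 at stage 12 alone.

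Of the 3 COBRA-like genes, 2 differed between genotypes at both stages, in opposite directions. The share of all genes past 2-fold at both stages was not counted. BC1L9 (LOC4349011) gave signals of 67.2 (ZH11) and 1748 (RNAi) at stage 9, and of 300.2 and 866 at stage 12. Both RNAi arrays were brighter than both ZH11 arrays. It was at least 24.6-fold higher in RNAi at stage 9, a bound set by the floor, and 2.88-fold higher at stage 12. Its second probe set read 32.9 and 968 at stage 9 and 143 and 380 at stage 12, at least 13.6-fold and 2.66-fold higher in RNAi. BC1L6 (LOC4343844) gave signals of 286 (ZH11) and 122 (RNAi) at stage 9, and of 304 and 88.0 at stage 12, so both ZH11 arrays were brighter than both RNAi arrays. It was 2.35-fold lower in RNAi at stage 9 and 3.46-fold lower at stage 12, and was within 2-fold between stages in either genotype. BC1L6 was read by 1 probe set, and its RNAi signals lay near the floor. With 2 times the floor both RNAi signals fell below it, and the log2 genotype ratios became bounds of -1.01 and -1.10. BC1L2, a further COBRA-like gene, stayed within 2-fold in all 4 comparisons, with signals of 314 and 370 at stage 9 and 172 and 187 at stage 12.

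CSLC9 was lower in RNAi at stage 12. CSLC genes make the glucan backbone of xyloglucan, a role known from Arabidopsis. CSLC9 (LOC4334258) gave signals of 1780 (ZH11) and 2496 (RNAi) at stage 9, and of 1818 (ZH11) and 273 (RNAi) at stage 12. A single array, RNAi at stage 12, was low, 6.65-fold below ZH11. CSLC9 was read by 1 probe set. In ZH11 its log2 stage ratio was 0.03, and in RNAi it was 9.13-fold lower at stage 12. The genotype ratio differed between stages by 9.33-fold. The other CSLC genes did not share this pattern. CSLC1 had signals of 1791 and 1558 at stage 9 and of 791 and 865 at stage 12, CSLC2 1477 and 1366 and then 320 and 373, and CSLC7 1717 and 2046 and then 343 and 417. All 3 were lower at stage 12 in ZH11, by 2.26-fold, 4.62-fold and 5.0-fold, and within 2-fold between genotypes at both stages. CSLC7 was read by a probe set that may match other transcripts. CSLC3 stayed between 58.8 and 76.3 on all arrays.

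CSLD5 was above the floor on the ZH11 stage 12 array alone. CSLD genes act in tip-growing cells in Arabidopsis, root hairs and pollen tubes among them. CSLD5 (LOC4340943) signals were 389 in ZH11 at stage 12, and 6.80 in RNAi at stage 12, 4.43 in ZH11 at stage 9 and 7.41 in RNAi at stage 9. It was at least 5.47-fold lower in RNAi at stage 12 and at least 5.47-fold higher at stage 12 than at stage 9 in ZH11. CSLD5 was read by 1 probe set, and both bounds rest on 1 bright array, ZH11 at stage 12. Late pollen markers were likewise above the floor on that array alone. The signals of EXPB9 and EXPB10, wall-loosening pollen allergens of the beta-expansin family, summed to 24907 in ZH11 at stage 12 and to 60.3, 66.1 and 70.8 on the ZH11 stage 9, RNAi stage 9 and RNAi stage 12 arrays. These were the 2 of 7 late pollen markers that were matched. On the RNAi stage 12 array, where CSLC9 was low as well, both were below the floor. They were below it on both stage 9 arrays too, where CSLC9 had signals of 1780 (ZH11) and 2496 (RNAi). The part of these markers in the ratios of CSLC9 and CSLD5 was not tested. The summed signal of 11 tapetum markers was 51042 in ZH11 and 31036 in RNAi at stage 9, and 4953 and 5042 at stage 12. These sums hold opposite differences: in RNAi 1 of the 11 was higher and 5 were lower at stage 9, and at stage 12 1 of the 10 above the floor was higher and 2 were lower. At stage 9 PTC1 was 2.20-fold higher in RNAi and C6 at least 123-fold lower, and at stage 12 RAFTIN1 was 10.8-fold higher and RTS 21.2-fold lower. RTS, like CSLD5, was bright on the ZH11 stage 12 array alone, with a signal of 1603. It read 79.3 (ZH11 stage 9), 68.6 (RNAi stage 9) and 75.7 (RNAi stage 12) on the others, all near the floor. Among the other CSLD genes, CSLD2 had signals of 1826 and 1942 at stage 9 and of 907 and 980 at stage 12, and its log2 stage ratio in ZH11, -1.01, was within 2-fold under both other scalings and with a pseudocount. CSLD4, the gene of the rice narrow and rolled leaf mutants, had 209 and 227 at stage 9 and 145 and 90.5 at stage 12. It was 2.51-fold lower at stage 12 in RNAi and within 2-fold in ZH11, with a log2 ratio of -0.52, and its probe set may match other transcripts.

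Among the CSLA and CSLE genes, CSLA1 was lower at stage 12 in both genotypes and CSLE2 in ZH11, and none passed 2-fold between genotypes. CSLA1, of the family of mannan synthases, gave signals of 3113 (ZH11) and 2872 (RNAi) at stage 9, and of 657 and 978 at stage 12, 4.74-fold and 2.94-fold lower. CSLA5, CSLA7 and CSLA9 were within 2-fold in all 4 comparisons, with signals between 177 and 488. CSLE2, of a family whose product is not established, had 1727 and 1371 at stage 9 and 475 and 710 at stage 12. It was 3.63-fold lower at stage 12 in ZH11, and in RNAi its log2 stage ratio was -0.95. The 2 dimmer probe sets of CSLE2 gave log2 stage ratios of -0.16 and -0.25 in ZH11 and of 0.91 and 1.21 in RNAi, so the direction in RNAi depended on the probe set. CSLE1 had 457 and 343 at stage 9 and 782 and 649 at stage 12, within 2-fold in all 4 comparisons. Its log2 stage ratio in RNAi was 0.92, and 1.04, past 2-fold, with the arrays scaled to equal medians.

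Enzymes that supply or accompany these synthases were read from lists of symbols. Of 13 genes of nucleotide sugar supply, 8 were lower and 2 higher at stage 12 in ZH11, and 9 and 2 in RNAi, with median log2 ratios of -1.82 and -1.95. Over all genes the shares were 15.7% lower and 17.1% higher in ZH11, and 15.8% and 14.9% in RNAi. None of the 13 passed 2-fold between genotypes at stage 9; at stage 12 UGE-4 and UGE-2, of the UDP-glucose epimerase family, were 2.66-fold and 2.59-fold lower in RNAi and UGE-3 was 2.25-fold higher. Of 10 genes measured from a list for xylan, xyloglucan and callose, 5 were lower and 1 higher at stage 12 in ZH11, and 4 lower and 0 higher in RNAi, read against the same shares. No callose synthase symbol (GSL) was among the 10, so they speak for xylan and xyloglucan genes only. GT43G, of the glycosyltransferase family of xylan synthesis, was 3.44-fold higher in RNAi at stage 9, the one of the 10 past 2-fold between genotypes at either stage. Of 15 lignin genes, 13 were above the floor on either array in ZH11 and 14 in RNAi, and in each genotype 3 were higher and 1 lower at stage 12, against 17.1% higher and 15.7% lower over all genes in ZH11 and 14.9% and 15.8% in RNAi. At stage 9 PAL06 and 4CL5, of phenylpropanoid synthesis, were 7.84-fold and 4.78-fold higher in RNAi. 4CL3, a 4-coumarate ligase, was 2.18-fold lower, with signals of 2008 (ZH11) and 921 (RNAi) at stage 9 and 3399 and 4532 at stage 12. At stage 12 CAD7 was 6.14-fold higher and 4CL2 2.30-fold lower in RNAi.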

How the data were processed

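Total RNA of spikelets was hybridised to 1 Affymetrix rice array per group. The authors deposited intensities on a linear scale, made with MAS5, per the submitters' processing notes, which name nothing else. Which version and scaling target they used is not given in the sources used here, and detection calls were not used. The array medians were 85.0 (ZH11) and 81.7 (RNAi) at stage 9 and 83.8 and 75.2 at stage 12. Depth does not apply to arrays, and their number limits the precision.

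Of 57381 probe sets, 22436 had 1 gene in the platform annotation, 95 several and 34727 none, beside 123 controls; the first stood for 17905 genes, all found in the RefSeq table of ASM3414082v1, used for names and neighbours. The probe set with the highest mean log2 signal stood for a gene, as for 7 members with several. The floor was the mean of the 4 trimmed means (2% at each end) divided by 5. Log2 ratios were taken with Python 3.11.15, numpy 2.4.6 and pandas 2.3.3. The calling rule was run on simulated 4-fold changes in bright probe sets with an assumed noise. Changes near 2-fold or near the floor were not simulated, and the noise of these arrays is not known. Members, gene lists and settings were chosen with earlier results of these data known. Members past 2-fold between genotypes or 8-fold between stages, the brightest of each subfamily, and CESA1, CESA3, CESA4, CESA7, CESA8 and CESA9 were to be given with all signals; further members given so, and BC1 in detail, were chosen after their values were seen. In each pathway list the 2 genes with the largest genotype ratio past 2-fold, per stage and direction, were named. None of 17 symbols of secondary wall transcription factors was matched. A pair of genes sharing the symbols BC1 and CP1 with other proteins was left out.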

Additional observations from a re-analysis of the deposited data

Results flagged for a closer look

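BC1L9 was called in opposite directions between stages in the 2 genotypes. Its log2 ratio of stage 12 over stage 9 was at least 2.08 in ZH11, where the stage 9 signal was below the floor, and -1.01 in RNAi. The second probe set gave at least 1.01 in ZH11 and -1.35 in RNAi. With 1 array per group the difference was not tested. The RNAi ratio lay within 2-fold under median scaling and under quantile normalization (-0.90 in both).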

How the results depend on the processing

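No paired analysis was possible because each group is 1 array, so no groups share 2 replicate numbers, and for the same reason no replicate could be left out; an additive fit of genotype and stage over the 4 arrays was not made. At 4-fold in place of 2-fold, 1 member was past the threshold between genotypes at stage 9 (1 higher, 0 lower), 2 at stage 12 (0 higher, 2 lower), 9 between stages in ZH11 (6 lower) and 8 in RNAi (5 lower). Under the other 7 alternatives (a common median, quantile normalization, 2 times the floor, a pseudocount of 16, no filter or floor, the mean of a gene's probe sets, no cross-matching probe sets) every count of members stayed within 1.5 times its value. For 16 genes named by rule, over 4 comparisons, 26 ratios passed 2-fold and 38 did not. Over the 8 alternatives this gave 208 values for the first, of which 187 kept the call and 21 lost it, 13 of them at the 4-fold threshold, with 0 turned in sign. Of 304 values for the others, 4 gained a call and 8 turned in sign: under median scaling the log2 genotype ratio of CESA3 at stage 12 went from -0.13 to 0.02, of CSLH1 at stage 12 from -0.07 to 0.09 and of CSLF6 from -0.02 to 0.04 at stage 9 and from -0.05 to 0.11 at stage 12, those of CSLH1 and CSLF6 turned under quantile normalization too, and the stage ratio of CSLE2 in RNAi went from -0.95 to 0.39 with the mean of probe sets. Leaving out cross-matching probe sets could not change any of the 64 ratios, because none of the 16 genes was read by such a probe set. Its values are thus kept calls by construction. The mean of probe sets brought the log2 stage ratio of CSLF6 to -0.65 in ZH11 and -0.59 in RNAi, since its 2 other probe sets were below the floor on all arrays, and that of CSLE2 in ZH11 to -0.76. MAS5 detection calls were not used here, so signals near the floor may be background.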
